A study of Mus musculus with 20 samples.

Results

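Transcripts of 9 genes of fetal liver and yolk sac were followed through mouse embryo and embryonic brain sections: Afp, Alb, Apoa1, Apoa2, Apoa4, Apob, Ttr, Rbp4 and Gcg. They were taken by symbol, and all 9 were found in each of the 4 expression tables, among 38414 gene IDs listed in at least 1 of them. Sections of wild-type C57BL/6J mice had been embedded in OCT and treated by MAPIT-seq, in which a primary antibody, bridged by a guinea pig anti-rabbit antibody, brings the fusion rAPOBEC1-pAG-hADAR2 to its target, where it edits nearby RNA from A to G and from C to T. The treated E10.5 fixed embryo libraries carried anti-G3BP1, against the stress granule protein G3BP1, or rabbit IgG, and both were fixed in 0.2% formaldehyde per the labels. The untreated libraries of that embryo received no antibody and no fusion, and their fixation is labelled as none although their titles call them fixed, so treatment and fixation cannot be told apart. The same 3 arms exist for libraries labelled E10.5 fresh-frozen embryo, with 0.2% formaldehyde again in the labels of the antibody arms. No formaldehyde is given for that untreated arm, so treatment and fixation cannot be told apart there either. E12.5 and E16.5 brain have anti-G3BP1 and IgG arms, all with 0.2% formaldehyde in their labels. The 20 libraries form 10 groups of 2. Nothing in the labels ties the 2 libraries of a group to different animals, so the p-values reflect only variation between these samples, and it may be technical.

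Fetal hepatocytes and the visceral endoderm of the yolk sac share a secretory programme. Both make the albumin-family carriers alpha-fetoprotein and albumin, the apolipoproteins that package lipid, and the carriers of thyroid hormone and retinol, and they load lipid onto Apob with the help of Mttp. Gcg, which encodes the precursor of glucagon and of glucagon-like peptides, is instead known from pancreatic alpha cells, intestinal L cells and some hindbrain neurons.

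In GRCm38, Alb (ENSMUSG00000029368) spans chr5:90460897-90476602 and Afp (ENSMUSG00000054932) chr5:90490737-90508907, both on the plus strand. On the plus strand of chromosome 9 lie Apoa1 (ENSMUSG00000032083) at chr9:46228580-46230466 and Apoa4 (ENSMUSG00000032080) at chr9:46240696-46243459. Apoa2 (ENSMUSG00000005681) spans chr1:171225054-171226379, and Apob (ENSMUSG00000020609) chr12:7977648-8016835. Ttr (ENSMUSG00000061808) lies on chromosome 18, Rbp4 (ENSMUSG00000024990) at chr19:38116629-38125281 on the minus strand, and Gcg (ENSMUSG00000000394) at chr2:62474530-62483650, also on the minus strand.

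The 2 libraries of a group had a Pearson r of 0.938 to 0.991 over log2 TPM, and from 17310 to 25508 genes per library reached 1 TPM (transcripts per 1000000 transcripts). The mean depth at the fixed embryo's tested editing sites was between 33.8 and 205 reads per library. Libraries whose label reads E10.5 fresh-frozen embryo went against it. Their summed TPM over 15 heart muscle genes lay between 17.02 and 54.2, against 4889 to 7706 in the fixed embryo, and over 15 neural genes it lay between 5784 and 7655, against 1419 to 2161. No comparison below was tested across tables, which were normalized separately.

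In the fixed embryo the 9 genes together made up 665 to 881 TPM in the 4 treated libraries, against 1287 and 1357 TPM in the 2 untreated libraries. TPM is scaled to transcript length, so levels of different genes can be set side by side. Over all 6 libraries Afp averaged 287 TPM, Apoa2 199, Ttr 129, Apoa1 128, Rbp4 95.4, Alb 74.0, Gcg 12.05, Apoa4 11.3 and Apob 2.12 TPM. Pooled over the arms, the ranges of neighbours in this order overlapped, except that Gcg reached 21.4 TPM at most and Alb was never under 55.3 TPM. Within each of the 6 libraries, however, Afp stood above Apoa2 and Apoa2 above Ttr. All 9 genes were above 1 TPM in all 6 libraries.

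**Figure D1:**
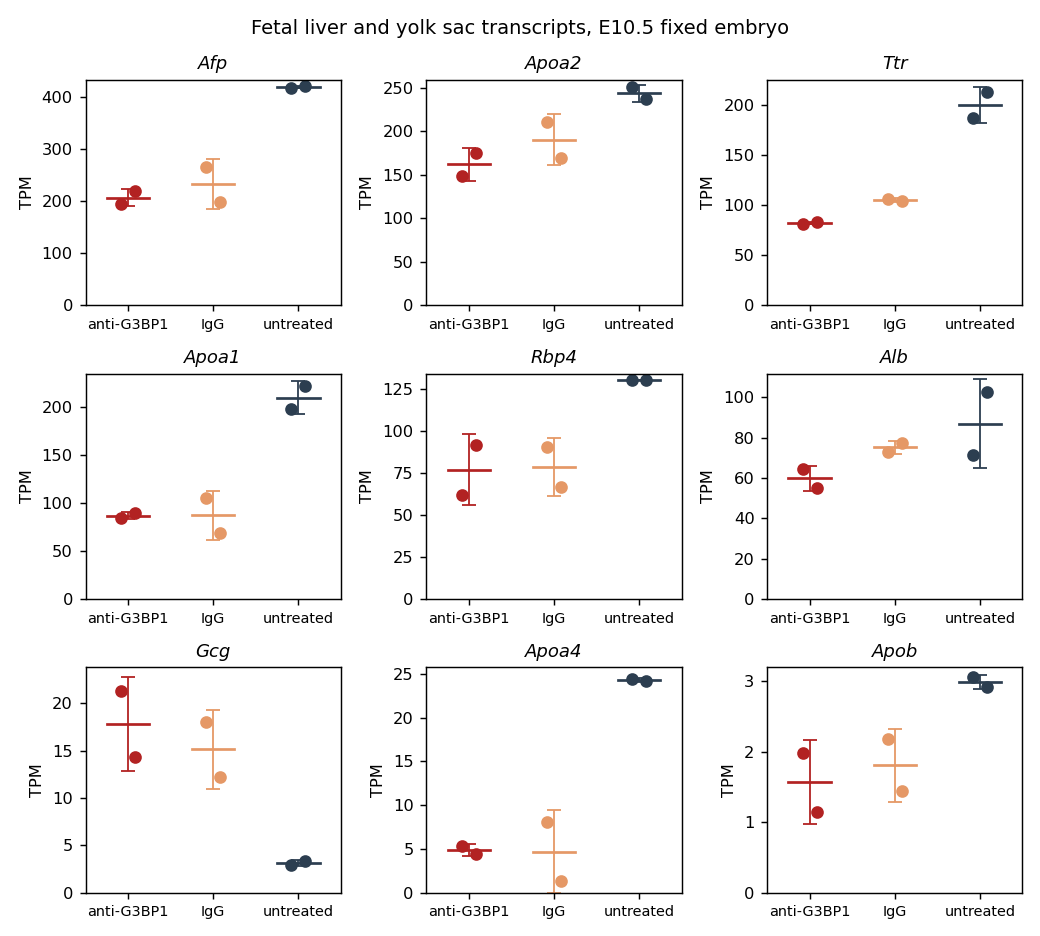
TPM of the 9 genes in each E10.5 fixed embryo library, by arm (points, libraries; horizontal line, mean; bar, SD; n = 2 per arm). Treated libraries lie below both untreated libraries for Afp, Apoa1, Apoa2, Apoa4, Apob, Ttr and Rbp4 and above both for Gcg, while Alb overlaps.

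The first question was whether these transcripts differed between treated and untreated sections of the fixed embryo. The mean was lower in treated libraries for 8 of the 9 and higher for Gcg. None passed limma's test at an adjusted p of 0.05, where 0 of 19144 genes (0.0%) did and 2406 genes had an unadjusted p under 0.05. The 4 treated and 2 untreated libraries did not overlap for 8 of the 9 genes. Of these, 7 were lower in treated libraries, where 5.91% of all genes tested had groups that did not overlap in that direction, and Gcg was higher, where 14.6% did. The median difference of the 9 was -0.76 on the log2(TPM + 1) scale, against 0.084 over all genes tested. In such bulk samples, fewer cells of a type and less RNA per cell cannot be told apart.

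Afp encodes alpha-fetoprotein, the major plasma protein of the fetus. It stood at 195 and 219 TPM with anti-G3BP1 and 266 and 199 TPM with IgG, against 418 and 421 TPM in untreated libraries. Every treated library was well under both untreated ones. The difference was -0.94 ± 0.13 (log2, SE; limma, unadjusted p = 0.000196, adjusted p = 0.242). Afp overlaps the antisense gene Gm43449, and whether counting used strand is not given in the sources used here.

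Alb encodes albumin, which replaces alpha-fetoprotein in plasma as the liver matures, and lies beside Afp on chromosome 5. It had 64.3 and 55.3 TPM with anti-G3BP1 and 72.8 and 77.5 TPM with IgG, against 71.2 and 102.6 TPM in untreated libraries. The groups overlapped, and the 2 untreated libraries were themselves far apart. The difference was -0.35 ± 0.16 (limma, adjusted p = 0.430).

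Apoa1, the main protein of high-density lipoprotein, had 84.4 and 89.8 TPM with anti-G3BP1 and 106 and 69.4 TPM with IgG, against 198 and 222 TPM without treatment. The difference was -1.27 ± 0.17 (limma, adjusted p = 0.242). Apoa4, which belongs to the same chromosome 9 cluster and is known from intestinal lipoproteins, had 5.36 and 4.39 TPM with anti-G3BP1 and 8.06 and 1.33 TPM with IgG, against 24.5 and 24.2 TPM without treatment. At -2.29 ± 0.50 (limma, adjusted p = 0.253), its difference was the farthest from 0 among the 9. The antisense genes Gm10680 and Gm47528 overlap Apoa4, so its level is uncertain in the same way as that of Afp.

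Apoa2, a second protein of high-density lipoprotein, had 149 and 175 TPM with anti-G3BP1 and 211 and 169 TPM with IgG, against 251 and 237 TPM in untreated libraries. Its difference of -0.48 ± 0.12 (limma, adjusted p = 0.258) was smaller than that of Apoa1. Apob, the scaffold of very-low-density lipoprotein, was low throughout, at 1.98 and 1.14 TPM with anti-G3BP1 and 2.17 and 1.44 TPM with IgG, against 3.06 and 2.92 TPM without treatment. Its groups did not overlap, but the difference of -0.59 ± 0.30 (limma, adjusted p = 0.470) was within 2 standard errors of 0.

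Ttr encodes transthyretin, which carries thyroid hormone and binds the retinol carrier encoded by Rbp4. Ttr had 81.4 and 82.7 TPM with anti-G3BP1 and 106 and 104 TPM with IgG, against 187 and 213 TPM in untreated libraries. Replicates lay close together in each arm, and the difference of -1.10 ± 0.087 had the smallest p of the 9 (limma, unadjusted p = 7.58e-06, adjusted p = 0.116). Without the first untreated library, Ttr alone of the 9 passed, with a difference of -1.19 and an adjusted p of 0.0326 by limma, in a fit that called 53 genes. Over all alternatives its adjusted p ran from 0.0326 to 0.575. Rbp4 had 62.0 and 92.0 TPM with anti-G3BP1 and 90.8 and 66.6 TPM with IgG, against 130.4 and 130.6 TPM without treatment, a difference of -0.76 ± 0.19 (limma, adjusted p = 0.256).

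Gcg ran the other way. It had 21.4 and 14.3 TPM with anti-G3BP1 and 18.1 and 12.2 TPM with IgG, against 2.93 and 3.40 TPM in untreated libraries. The lowest treated library was above both untreated ones, and the difference was 2.04 ± 0.24 (limma, unadjusted p = 8.3e-05, adjusted p = 0.242). Its sign was opposite to that of the other 8 genes.

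Between the 2 antibodies in the fixed embryo, 0 of 19144 genes (0.0%) were called by limma, 1153 had an unadjusted p under 0.05, and none of the 9 was called. Groups did not overlap for Ttr, at 82.0 ± 0.956 TPM with anti-G3BP1 and 105 ± 1.73 TPM with IgG (SD, n = 2 each), and for Alb, at 59.8 ± 6.37 and 75.2 ± 3.33 TPM in the same order of arms. Both were lower with anti-G3BP1, where 36.1% of all genes tested had groups that did not overlap in that direction and 9.74% in the other. The differences were -0.35 for Ttr (limma, adjusted p = 0.659) and -0.33 for Alb (adjusted p = 0.817).

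Other genes of the same pathways, listed with earlier results of these data known, gave no call in treated against untreated fixed embryo, where 62.4% of all genes tested had a positive difference. Of 28 plasma protein genes tested, 23 had a negative difference, with a median of -0.26. Treated libraries were all below untreated ones for 10 of the 28, against 5.91% of all genes tested, and all above for 1, against 14.6%. Trf, the iron carrier transferrin, averaged 58.4 TPM in treated and 82.9 TPM in untreated libraries, and the fibrinogen chain Fga 5.20 and 12.03 TPM. Vtn, which encodes the adhesive protein vitronectin, went against them at 288 TPM in treated and 152 TPM in untreated libraries. Ambp, another hepatic secretory gene, was at 81.1 and 80.2 TPM. Summed over the list, these genes reached 629 to 669 TPM in treated and 602 and 601 TPM in untreated libraries. That order rested on Vtn, without which the sum was 312 and 334 TPM with anti-G3BP1 and 403 and 425 TPM with IgG, against 428 and 472 TPM in untreated libraries.

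Of 20 further genes of lipoprotein assembly and lipid transport, 10 had a negative and 10 a positive difference, with a median of 0.021. Treated libraries lay all below untreated ones for 4 of the 20 and all above for 2, against 5.91% and 14.6% of all genes tested. The genes named next were all lower on average in treated libraries, so they do not stand for the list. Apoc2, the activator of lipoprotein lipase, averaged 5.30 TPM in treated and 31.4 TPM in untreated libraries, a difference of -2.54 ± 0.49 (limma, adjusted p = 0.242), but shares its strand with the overlapping gene Gm44805. Apom, a small lipoprotein component, averaged 67.9 and 102.9 TPM, and Apoe 207 and 243 TPM. Mttp, which loads lipid onto Apob, averaged 5.87 and 6.52 TPM, and its groups overlapped.

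Of 19 genes of visceral endoderm and its uptake of proteins, 12 had a negative and 7 a positive difference, with a median of -0.097. Treated libraries lay all below untreated ones for 4 of the 19 and all above for 2, against 5.91% and 14.6% of all genes tested. Amn and Cubn, which encode the receptor pair cubam, averaged 2.09 and 1.24 TPM in treated libraries, against 7.98 and 2.93 TPM in untreated ones. Spink1, a trypsin inhibitor, averaged 2.15 TPM in treated and 9.05 TPM in untreated libraries. Lrp2 and Dab2, a receptor and its adaptor, overlapped between groups, at 3.15 and 27.8 TPM in treated and 3.23 and 25.9 TPM in untreated libraries.

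Among 18 genes that handle retinoids and thyroid hormone, 13 had a positive difference, with a median of 0.18, against 62.4% positive and a median of 0.084 over all genes tested. Groups did not overlap for Crabp1, a cellular retinoic acid carrier, at 1333 TPM in treated and 2218 TPM in untreated libraries, nor for Cyp26b1, which degrades retinoic acid, at 7.06 and 13.3 TPM. The retinoic acid receptor gene Rarg averaged 32.4 and 20.8 TPM. Of the 18 genes, 2 had treated libraries all below untreated ones and 2 all above, against 5.91% and 14.6% of all genes tested.

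Of 19 transcription factors of liver and endoderm tested, 14 had a positive difference, with a median of 0.15, which is near the values over all genes. Hnf4a averaged 6.08 TPM in treated and 5.77 TPM in untreated libraries. Foxa1 averaged 34.1 and 19.4 TPM, and Foxa2 63.3 and 40.1 TPM, with no overlap for either. Treated libraries lay all above untreated ones for 3 of the 19 factors, near the 14.6% of all genes tested. Among 17 genes of islet and enteroendocrine cells the median was 0.087. Treated libraries lay above both untreated ones for Neurog3, the factor of endocrine progenitors, at 13.0 TPM in treated and 2.54 TPM in untreated libraries, and for the gut hormone gene Pyy, at 14.0 and 1.26 TPM. Sst, which encodes somatostatin, ran the other way at 33.4 and 59.9 TPM. Of the 17 genes, 3 had treated libraries all above untreated ones and 2 all below, against 14.6% and 5.91% of all genes tested. The beta cell genes Ins2 and Iapp and the pancreas factor Pdx1 averaged 0.101, 0.340 and 0.498 TPM over the 6 libraries, so Gcg stood far above them.

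**Figure D2:**
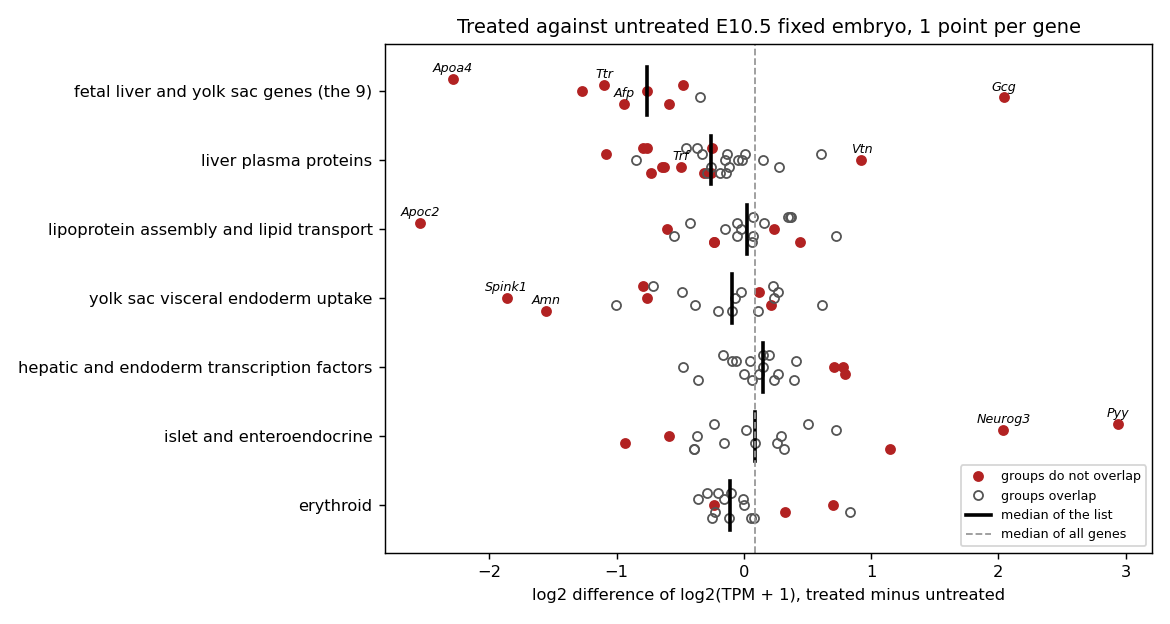
Difference between treated and untreated E10.5 fixed embryo, log2(TPM + 1), for each gene of the set and of 6 further lists (filled, groups do not overlap; open, groups overlap; bar, list median; dashed line, median of all genes). The 9 genes have a median of -0.76, with Gcg at 2.04; the genes labelled in the other lists were picked after their values were seen.

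Of the summed erythroid, heart muscle, neural, mesenchyme and endothelial markers, only the endothelial ones had groups that did not overlap: these 15 genes summed to 548 to 579 TPM in treated libraries, against 478 and 521 TPM in untreated ones. The summed TPM of 17 erythroid genes lay between 13722 and 15821 in treated libraries, against 15273 and 19574 in untreated ones, and that of 15 heart muscle genes between 4889 and 6455, against 7706 and 6276. The neural list summed to 1419 to 2161 TPM in treated and 2049 and 2065 TPM in untreated libraries, and the mesenchyme list to 1140 to 1302 TPM and 1273 and 1173 TPM. Gene by gene, the neural median difference was -0.31, with treated libraries all below untreated ones for 6 of 15 genes and all above for 2. For heart muscle the median was -0.23, with 4 of 15 all below and 0 all above. Medians were -0.11 for erythroid, 0.16 for mesenchyme and 0.20 for endothelial genes. Treated libraries lay all above untreated ones for 6 of 15 endothelial, 3 of 15 mesenchyme and 2 of 16 erythroid genes tested. They lay all below for 1 gene in each of these lists. Over all genes tested the median was 0.084, with 5.91% all below and 14.6% all above. Mitochondrial transcripts took 8.58% to 10.04% of TPM in treated and 9.59% and 11.3% in untreated libraries. When TPM was rescaled without globin and mitochondrial genes, none of the 9 genes changed direction. The part of the marker lists and of these transcripts in the differences of the 9 genes was not otherwise tested.

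Among 10300 genes averaging 10 TPM or more, those whose log2 levels ran most like Afp over the 6 fixed libraries were Ppp1r17, Tspan6, Apoc2, Gm44805, Rab3a, Spcs3, Dok5 and Trf, with Pearson r from 0.993 down to 0.973. Those most like the mean of the 8 members at 10 TPM or more were Prph, Pcnp, Psmd8, Apoc2, Gm44805, Arhgap36, Gm10680 and Tbc1d9, with r from 0.999 down to 0.975 over the same libraries. Gm44805 overlaps Apoc2 on the same strand, and Gm10680 overlaps the member Apoa4 on the other strand. The levels of these overlapping genes may therefore not be separate. The 6 points share the division into treated and untreated libraries, and 96 and 86 genes passed an r of 0.9 with the Afp and the mean profile, so these names describe few libraries.

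Sequence upstream of the genes was read from RefSeq promoter windows of GRCm38.p6 around each gene's start, which matched 8 of the 9 genes in 10 windows. Short motifs of hepatic and endoderm factors were searched on both strands, and a stretch is printed for 4 genes, of which Gcg ran opposite to the other 3 above. The letters GTTAAT, a half-site of HNF1 factors, were in the windows of Afp and Alb and in 7.1% of 32851 windows of all genes. The letters CAAAGT, the core of HNF4 sites, were in those of Alb, Apoa4 and Gcg and in 14.4% of all. Capitals mark the motif, and each stretch reads along the gene's strand.
Afp, plus strand, within chr5:90490464-90490763: acccctgctctGTTAATtattggcaaat
Alb, plus strand, within chr5:90460620-90460919: aggtaagtatgGTTAATgatctacagtt
Apoa4, plus strand, within chr9:46240594-46240893: atgttctgagaCAAAGTtcaggttggtg
Gcg, minus strand, within chr2:62483604-62483903: aagcagatgagCAAAGTgagtgggcgag
The FOXA core TGTTTAC was in windows of Apoa2 and Rbp4 and in 3.65% of all. The TATA box letters TATAAA were in windows of Afp, Apoa2, Apob, Gcg and Rbp4 and in 13.6% of all. These are matches of letters only.

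Outside the fixed embryo the 9 genes were low. Summed, they reached 11.7 to 21.7 TPM in the libraries labelled fresh-frozen, 8.46 to 22.5 TPM in E12.5 brain and 23.5 to 38.2 TPM in E16.5 brain. Afp was listed at 0 in 11 of these 14 libraries and never passed 1.02 TPM. Apoa4 reached 0.315 TPM and Apob 0.534 TPM at most. Apoa1 lay between 4.06 and 7.51 TPM in the fresh-frozen and 2.98 and 4.44 TPM in the E16.5 libraries, but between 0 and 3.14 TPM at E12.5. Apoa2 lay between 6.43 and 17.2 TPM at E16.5 and between 0 and 10.4 TPM in the fresh-frozen libraries. Gcg was listed at 0 in 3 of 4 libraries of E12.5 brain and stood at 4.90 to 7.32 TPM in the 4 of E16.5.

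**Figure D3:**
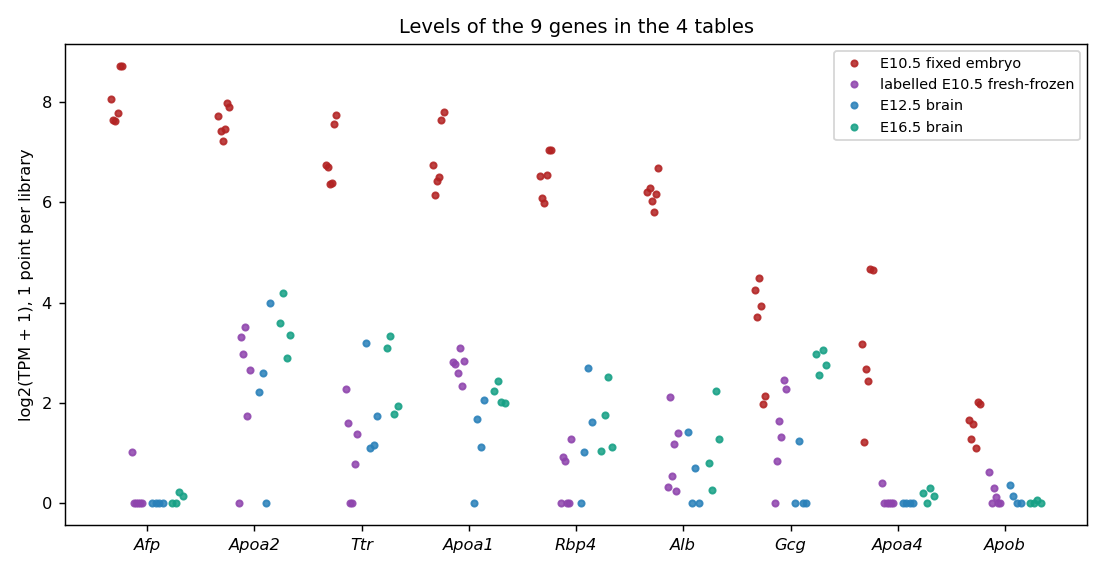
Level of each of the 9 genes in every library, as log2(TPM + 1), by table (1 point per library). Afp, Apoa4 and Apob lie at or near 0 outside the fixed embryo, whereas the other 6 reach low levels in some libraries; the tables were normalized separately.

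In the libraries labelled fresh-frozen, 3018 of 23545 genes (12.8%) were called by limma between treated and untreated arms, and of the 5 members that passed the filter on low values none was. Of these, only Gcg had groups that did not overlap. Gcg had 2.10 and 1.49 TPM with anti-G3BP1 and 0 and 0.800 TPM with IgG, against 4.47 and 3.82 TPM without treatment. All treated libraries were below both untreated ones, as for 18.6% of genes tested, against 17.8% in the other direction, and the difference was -1.41 ± 0.39 (limma, adjusted p = 0.0655). This direction, opposite to that in the fixed embryo, comes from libraries with brain content. Between anti-G3BP1 and IgG there, 8 of 23545 genes (0.034%) were called and no member. Ttr was listed at 0 in both anti-G3BP1 libraries and had 3.86 and 2.02 TPM with IgG. Groups did not overlap for Ttr, which was lower with anti-G3BP1 as 21.2% of genes were, and for Gcg, which was higher as 21.5% were.

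In E12.5 brain 0 of 18010 genes (0.0%) were called by limma between anti-G3BP1 and IgG, and 2452 had an unadjusted p under 0.05. Of 4 members tested, only Rbp4 had groups that did not overlap, at 2.07 and 5.43 TPM with anti-G3BP1 and 0 and 1.01 TPM with IgG, as had 14.7% of genes in that direction and 33.7% in the other (limma, adjusted p = 0.372). In E16.5 brain 2 of 18564 genes (0.0108%) were called and none of the 6 members tested. Ttr had 2.43 and 2.81 TPM with anti-G3BP1, against 9.06 and 7.55 TPM with IgG, a difference of -1.36 ± 0.19 (limma, unadjusted p = 0.000247, adjusted p = 0.284). Both anti-G3BP1 libraries were lower, as in 23.6% of genes. Apoa1 and Apoa2 also had lower anti-G3BP1 libraries without overlap, and Alb had higher ones, as in 17.8% of genes. In brain Ttr is known from the choroid plexus, and the choroid plexus genes Folr1, Clic6 and Kl averaged 0.735, 0.645 and 0.451 TPM over the 4 libraries of E16.5. Other genes of that list were higher there, among them Foxj1, Enpp2, Otx2 and Sostdc1 at 22.1, 17.7, 10.2 and 4.82 TPM. The list was thus mixed, and how much choroid plexus these libraries held was not tested.

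Edited sites were sparse in the 9 genes. The fixed embryo table listed 33 sites in them, 24 C-to-T and 9 A-to-G, of which 28 lay in coding sequence, 4 in 3′ UTRs and 1 in a 5′ UTR. Afp had 9, Apoa1 7, Ttr 5, Alb and Apoa4 3 each, Apoa2 and Apob 2 each, and Rbp4 and Gcg 1 each. Edited reads appeared in 1 library alone at 28 of the 33 sites, and 26 sites had 2 edited reads in all. Low counts were frequent in this table: of its 92951 sites, 23220 had 2 edited reads in the first IgG library and 3164 had 1. These are counts within 1 library, whatever the others held, so they are not the same measure as the totals above. Of the coding changes 16 were synonymous, 11 missense and 1 would give a stop codon. The 4 sites printed here, centred on the edited base in capitals, are the stop codon site of Apoa1, its most edited neighbour, the Afp site with most edited reads and the better covered Apob site.
Apoa1 stop site, chr9:46230202, plus strand, GRCm38: gagcctggccCagcgcctggc
Apoa1 missense site, chr9:46230167, plus strand, GRCm38: acacagctagCgccccacagc
Afp synonymous site, chr5:90497282, plus strand, GRCm38: caaggtcgttCtggcatgctg
Apob synonymous site, chr12:8016364, plus strand, GRCm38: atttttcagaCcaactctcta

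At the Apoa1 stop site a CAG codon at position 199 would read TAG. It had 2 edited of 61 reads in the first anti-G3BP1 library and 0 of 67 in the second, against 0 of 151 and 0 of 60 with IgG and 0 of 143 and 0 of 54 in untreated libraries. Apob RNA is known for the editing by Apobec1 of a CAA codon to a stop in intestine. The 2 Apob sites listed here were synonymous, lay in the last of 29 exons and had 2 edited reads each, in 1 library each. Apobec1 itself averaged 1.29 TPM in treated and 0.986 TPM in untreated fixed embryo.

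Over the 23 sites covered at least 10 times in each library, the edited share of the 9 genes was 0.768% and 0.940% with anti-G3BP1 and 0.122% and 0.243% with IgG, against 0.563% and 1.77% in untreated libraries. Both anti-G3BP1 libraries were above both IgG libraries, but the untreated libraries, which held no fusion, spanned a wider range. Of the 17 and 18 edited reads in the untreated libraries, 7 and 9 came from 1 Ttr site described below. The second untreated library was also the shallowest, with a mean depth of 33.8 reads at tested sites. Over all tested sites of the table, too, both anti-G3BP1 libraries were above both IgG ones, at 0.478% and 0.491% with anti-G3BP1 and 0.363% and 0.402% with IgG, against 0.390% and 0.565% in untreated libraries. The 95% Wilson intervals, which cover counting error only, ran from 0.429% to 1.37% and from 0.538% to 1.64% with anti-G3BP1, from 0.0474% to 0.313% and from 0.0944% to 0.622% with IgG, and from 0.352% to 0.9003% and from 1.12% to 2.78% without treatment.

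Afp, Alb, Apoa1 and Ttr had reads enough to be tested, and none was called in either comparison. Between anti-G3BP1 and IgG 1 of 5594 genes (0.0179%) was called by the quasi-binomial model, and between treated and untreated libraries 0 (0.0%), with 177 at an unadjusted p under 0.05. Apoa1 had 5 edited of 368 and 4 of 401 reads with anti-G3BP1 and 0 of 926 and 0 of 392 with IgG, but also 6 of 958 and 0 of 328 without treatment (quasi-binomial model, adjusted p = 0.910 for anti-G3BP1 over IgG). A count of 0, read as up to 3 reads of the depth, allows a share of up to 0.324% and 0.765% in the 2 IgG libraries, and the Wilson interval of the plot runs to 0.413% and 0.970%.

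Afp had 2 edited of 610 and 6 of 507 reads with anti-G3BP1 and 1 of 1326 and 2 of 667 with IgG, against 0 of 1153 and 7 of 345 without treatment. Its log2 odds ratio of anti-G3BP1 over IgG was 2.12 ± 1.30 (quasi-binomial model, adjusted p = 0.910). Alb had 2 of 106 and 0 of 93 with anti-G3BP1 and 0 of 256 and 2 of 171 with IgG, against 0 of 115 and 0 of 51 in untreated libraries. No arm stood apart at these counts.

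Of the 4 genes tested, Ttr had the highest edited share without treatment. It had 2 of 228 and 0 of 152 edited reads with anti-G3BP1 and 3 of 461 and 0 of 300 with IgG, against 7 of 530 and 11 of 200 in untreated libraries, a log2 odds ratio of -2.23 ± 0.999 for treated over untreated (quasi-binomial model, adjusted p = 0.952). Of the untreated reads counted as edited, 7 of 7 and 9 of 11 came from 1 A-to-G site in exon 1, a synonymous change of GAA to GAG in codon 19. There, 0 of 29 and 0 of 15 reads were edited with anti-G3BP1 and 1 of 34 and 0 of 29 with IgG, against 7 of 41 and 9 of 18 in untreated libraries. With C-to-T sites alone the log2 odds ratio of Ttr was 0.47, so its sign rests on that site.

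**Figure D4:**
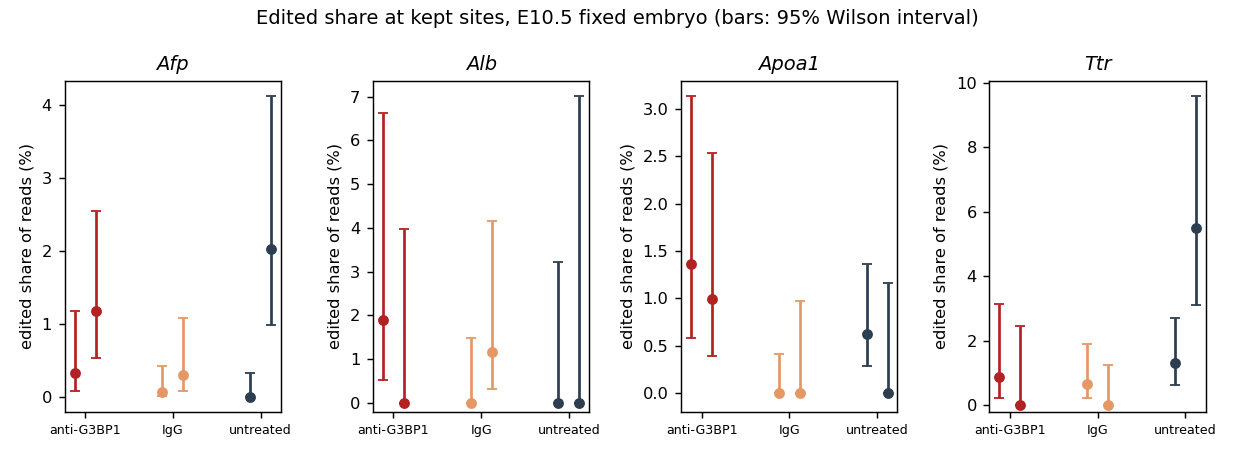
Edited share of reads (%) at sites covered 10 times or more in each library, for the 4 genes tested, per E10.5 fixed embryo library (points; bars, 95% Wilson interval; 2 libraries per arm). Apoa1 is at 0 in both IgG libraries and at 1.36% and 0.998% with anti-G3BP1; Ttr reaches 5.50% in an untreated library.

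No site of the 9 genes was listed in the fresh-frozen or E12.5 brain tables. E16.5 brain listed 3, of which 2 were in Apoa2 and 1 in Apoa1, with 0 edited reads in every library at depths of 2 to 18 reads, where editing was not detectable at this depth.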

How the data were processed

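Per the labels' protocols, poly(A) RNA from TRIzol extracts went into VAHTS Universal V6 libraries. The authors deposited TPM per gene and, per the file headers, counts of covering and edited reads per site and library, in 4 tables of each kind. The submitters' processing notes name GATK 4.5.0.0, featureCounts 2.0.1 of Subread, BWA 0.7.17, HISAT2 2.2.1 and Picard 3.1.1, with builds mm10 and GRCm38; settings and strand were not given in the sources used here. TPM keeps no read depth, so depth behind it is unknown.

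Expression was tested with limma 3.58.1 (R 4.3.3, trend) on log2(TPM + 1), which understates changes of low genes, keeping genes that reached 1 TPM in 2 libraries; treated is the mean of the IgG and anti-G3BP1 arms. Edited reads at sites covered 10 times or more throughout were summed per gene, with 50 or more reads per library, and tested with a quasi-binomial model with 0.25 added reads and moderated dispersion. Fits ran over whole tables with Benjamini-Hochberg adjustment, two-sided, threshold 0.05. Sites were placed with Biopython 1.88 and the GENCODE annotation of GRCm38. Both tests were checked on simulated data. The members and lists were chosen with earlier results of these data known. All 9 members are named, with the 8 genes most like Afp and the 8 most like the members' mean; genes of the other lists were to be named if called, and as none was, those named were picked after their values were seen. Alternatives were the pseudocount, filters, scaling, libraries left out, a replicate block, single antibody arms and site depth or kind; both antibodies as 1 arm was added after seeing the data.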

Additional observations from a re-analysis of the deposited data

Results flagged for a closer look

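Gcg differed in direction between the 2 embryo tables under the same contrast: every treated library was above both untreated ones in the fixed embryo, with a log2 difference of 2.04, and every treated library was below both in the libraries labelled fresh-frozen, with -1.41. The difference between the tables was not tested, and the second set has brain content. Alb was lower in both anti-G3BP1 than in both IgG libraries of the fixed embryo, with a log2 difference of -0.33, and higher in both at E16.5, with 1.22, where it had 3.69 and 1.42 TPM with anti-G3BP1 and 0.195 and 0.749 TPM with IgG. That difference was not tested either, and all 4 differences missed the threshold.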

How the results depend on the processing

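The number of the 9 genes called stayed at 0 in 92 of 94 alternatives of the comparisons in which any was tested. It was 1 (Ttr) in treated over untreated fixed embryo without the first untreated library, so leaving out a library gave 0 to 1, and 1 (Gcg, log2 difference -1.94, limma, adjusted p = 0.0436, range over alternatives 0.0436 to 0.294) in the libraries labelled fresh-frozen with IgG alone over untreated. In the fixed embryo no alternative turned the direction of any of the 9 between treated and untreated libraries. With the replicate number as a block 0 members were called in every comparison in which any was tested. Same-numbered libraries did not deviate together over the genes tested (r between -0.038 and 0.037). With 2 libraries per group, such a correlation cannot exclude that a number marks a shared animal or batch.

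None of the following was called, before or after, and the cause was not tested. Fixed embryo, anti-G3BP1 over IgG (log2): Rbp4 turned to 0.091 when centred on the median gene. Leaving out libraries gave -0.36 to 0.059 for Afp, -0.28 to 0.32 for Apoa1, -0.63 to 1.33 for Apoa4, -0.38 to 0.10 for Apob, -0.049 to 0.50 for Gcg and -0.32 to 0.24 for Rbp4. Libraries labelled fresh-frozen, treated over untreated: Apoa2 turned to -0.35 with a pseudocount of 0.1 and to -0.54 with IgG alone, where Ttr turned to 0.86. Leaving out libraries gave -0.36 to 0.80 for Alb, -0.023 to 0.48 for Apoa1, -0.58 to 1.07 for Apoa2 and -0.41 to 0.20 for Ttr. Anti-G3BP1 over IgG there ran from -1.25 to 0.54 for Alb, -0.19 to 0.30 for Apoa1 and -0.072 to 3.24 for Apoa2. E12.5 brain gave -0.091 to 1.59 for Apoa1, -2.40 to 1.60 for Apoa2 and -1.75 to 0.35 for Ttr, and E16.5 brain -0.059 to 0.35 for Gcg and -0.27 to 1.12 for Rbp4.

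Editing (log2 odds ratios), anti-G3BP1 over IgG, ran from -1.13 to 3.70 for Alb and -1.49 to 2.99 for Ttr without single libraries. Treated over untreated ran from -2.55 to 4.08 for Afp, -1.59 to 1.51 for Apoa1 and -3.47 to -1.33 for Ttr. Ttr turned to 0.47 at 20 or more reads and with C-to-T sites alone, Apoa1 to 0.16 with C-to-T sites alone and 0.032 with limma on the empirical logit, and Afp to 1.56 with A-to-G sites alone and 0.32 with limma. Few edited reads limit these values.

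Counts of calls over all genes moved more. Treated over untreated libraries labelled fresh-frozen gave 3018, against 1450 with anti-G3BP1 alone, 2013 with the block, 0 to 889 without single libraries and 2219 to 3755 under the other alternatives. Anti-G3BP1 over IgG gave 8 there, against 113 with a minimum of 5 TPM, 32 rescaled without globin and mitochondrial genes and 0 with a pseudocount of 0.1, no filter, the block or any library left out. It gave 7 in the fixed embryo with a minimum of 5 TPM, against 0, 1 in E12.5 brain with the block, against 0, and 0 to 4 in E16.5 brain, against 2. Editing gave 0 or 1 for anti-G3BP1 over IgG in the fixed embryo, and 3 for treated over untreated without the first untreated library, against 0.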
